A study of Arabidopsis thaliana with 24 samples.

Results

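Leaves of Arabidopsis thaliana make the protein that starts flowering, and the 10 genes described here decide much of when they do so. They were chosen by locus as FT (AT1G65480), TSF (AT4G20370), SOC1 (AT2G45660), SVP (AT2G22540), FLC (AT5G10140) and the 5 FLC relatives FLM (AT1G77080, also MAF1), MAF2 (AT5G65050), MAF3 (AT5G65060), MAF4 (AT5G65070) and MAF5 (AT5G65080), and all 10 have a row among the 22279 genes of the deposited files. FT and its near relative TSF are florigens, small proteins made in the phloem of leaf veins that travel to the shoot tip and trigger flower formation there. SOC1 is a MADS-box transcription factor that gathers the flowering signals. SVP, FLC and the FLC relatives are MADS-box repressors that hold FT and SOC1 down, and FLC, MAF4 and MAF5 are known as genes whose activity depends on the histone variant H2A.Z and on the SWR1 complex that installs it.

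The 24 libraries came from 3-week-old leaves and form 8 groups, 4 genotypes with 2 treatments each, every group in 3 biological replicates. WT was compared with 3 lines that lack their own H2A.Z and express HTA11, an H2A.Z gene. Delta28 carries HTA11 without its first 28 residues, K>R 1-9 carries it with all 9 lysines of the tail changed to arginine, and K>R 3 with a change at the third of these lysines, residue 13. Leaves were painted with 10 uM abscisic acid (ABA), a hormone of drought stress, or with DMSO in water as a mock, and were taken after 4 h. For both treatments the labels list 0.01% Silwet, a surfactant. All plants grew at 20 °C in days of 16 h light and 8 h dark, a long-day regime. An intact HTA11 in the null background is not among these lines, so a difference from WT cannot be tied to the tail alone. Which promoter drives HTA11, and whether a construct is represented by 1 line or several, is not stated in the labels.

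The family resemblance of the MADS-box members is shown by the first 60 coding bases of each, because near-identical copies could share reads. The sequences are from RefSeq (TAIR10.1) and capitals mark bases that differ from FLC at the same position. For MAF5 the start shown is an in-frame one that lies 21 bases after the first annotated start. The deposited files name no genome build, so the coordinates apply to the RefSeq sequence only.
FLC, chr5:3179280-3179339, minus strand: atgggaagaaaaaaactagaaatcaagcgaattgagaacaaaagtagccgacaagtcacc
FLM, chr1:28955679-28955738, plus strand: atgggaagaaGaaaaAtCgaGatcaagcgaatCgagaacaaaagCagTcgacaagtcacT
MAF2, chr5:25982415-25982474, plus strand: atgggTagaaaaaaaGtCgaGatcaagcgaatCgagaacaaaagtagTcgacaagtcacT
MAF3, chr5:25987527-25987586, plus strand: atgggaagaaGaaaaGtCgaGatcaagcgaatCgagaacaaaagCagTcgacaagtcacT
MAF4, chr5:25992310-25992369, plus strand: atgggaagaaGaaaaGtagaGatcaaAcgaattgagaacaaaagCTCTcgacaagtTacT
MAF5, chr5:25997671-25997730, plus strand: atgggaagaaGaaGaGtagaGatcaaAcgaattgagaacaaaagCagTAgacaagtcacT
SVP, chr2:9580417-9580476, plus strand: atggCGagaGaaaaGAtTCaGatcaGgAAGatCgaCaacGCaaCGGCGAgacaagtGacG
SOC1, chr2:18810134-18810193, minus strand: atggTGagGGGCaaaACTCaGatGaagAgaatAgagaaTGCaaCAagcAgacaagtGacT

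Over the first 180 coding bases the FLC relatives were 81.1% to 85% identical to FLC, whereas SVP and SOC1 were each 62.8% identical to it. MAF2 and MAF3 were 94.4% identical to each other and MAF4 and MAF5 90%. MAF2, MAF3, MAF4 and MAF5 follow one another on chromosome 5. Over whole transcripts, 10% of the 31-base words of MAF3 and 3.78% of those of MAF2 occurred in another member, and at most 1.12% for the others. The authors' counts of all 10 members were whole in all 24 libraries, so no read was split between these genes.

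The gene models behind the deposited files limit what can be read from 3 of the members. The assay, QuantSeq, counts the 3′ ends of transcripts. Of 11675 genes with 1 annotated transcript, 11594 (99.3%) have a deposited length that leaves out exactly the exon with the lowest coordinate, and 0 have the full length. In minus-strand genes this is the exon with the 3′ end. TSF, SOC1 and FLC lie on the minus strand, while FT, SVP, FLM, MAF2, MAF3, MAF4 and MAF5 lie on the plus strand. By this rule the plus-strand members keep their 3′ exon in the deposited models. The rule was applied by strand. Members other than TSF have 2 to 11 annotated transcripts and were not among the genes compared. TSF had 0 counts in all 24 libraries and FLC 1 count, in WT ABA replicate 1. With the 3′ exon left out, these values say nothing of whether either gene was expressed, and the cause of the low counts was not tested. By the same rule SOC1 was counted without its 3′ exon, so its level is not comparable with that of the others, although its samples can be compared with each other.

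The libraries held 1565518 to 15086279 counts (median 7142427), so that 3 counts correspond to between 0.199 and 1.92 CPM (counts scaled to a library total of 1e6). Levels are given as CPM of the library total, fold changes come from 1 edgeR model over all libraries, and adjusted p-values are by Benjamini and Hochberg over the 13874 genes that passed the filter on low counts. These included 8 of the 10 members, all except TSF and FLC. HTA9, another H2A.Z gene, lay between 301 and 436 CPM in WT libraries and between 53.7 and 109 CPM in those of the mutant lines. HTA11 was at 4.70 to 10.3 CPM in WT, 2.52 to 9.51 CPM in Delta28 and 393 to 914 CPM in K>R 1-9. It was at 11.4, 870 and 38.4 CPM in K>R 3 mock replicates 1 to 3 and at 5.87 to 21.2 CPM in K>R 3 ABA libraries. The HTA11 count thus did not set Delta28, or K>R 3 ABA replicate 2 at 5.87 CPM, apart from WT. It does not check the label of the Delta28 line or of that K>R 3 library. The library labelled K>R 3 mock replicate 2 therefore stood apart from its group, inside the K>R 1-9 range, and WT mock replicate 2 was the shallowest library. The calls of named genes were also fitted without both of these libraries, an alternative added after the data were seen. Defining markers of leaf mesophyll had 2525 to 29084 CPM summed per library, as the tissue label says. Those of the shoot meristem had at most 0.306 CPM, and 2 of the 4 had any count. Whether their 3′ exons are in the deposited models was not checked, so the low sum does not show that meristem was absent.

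FT was low in WT leaves and higher in Delta28 leaves. In mock leaves FT was at 0.203, 0 and 0.281 CPM in WT replicates 1 to 3, which is 4 counts in all. In Delta28 mock leaves it was at 3.77, 3.88 and 4.00 CPM, and with ABA at 7.69, 1.52 and 2.83 CPM. With ABA the WT replicates were at 2.19, 0.384 and 1.46 CPM. In mock leaves the WT and Delta28 libraries thus lay far apart, and with ABA they overlapped; 5 of 6 Delta28 libraries exceeded all 6 WT libraries.

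Over both treatments FT was higher in Delta28 than in WT by 2.98 on the log2 scale (SE 0.72, 95% interval 1.48 to 4.47), with an adjusted p = 0.0398 by edgeR's quasi-likelihood test. FT was the 1 member of the 8 tested that was called in this comparison, where 1.36% of all 13874 genes were called. The call was close to the threshold: of 12 fits that each left out 1 library of these groups it held only without Delta28 ABA replicate 2, with edgeR adjusted p from 0.0462 to 0.110 and log2 fold changes from 2.47 to 3.19. With both of the libraries named above left out, the value was 2.88 (edgeR adjusted p = 0.0844). In bulk leaf RNA fewer cells of a type and less RNA per cell cannot be told apart. None of the 5 phloem markers (SUC2, AHA3, SULTR2;1, SWEET11 and SWEET12) was called between Delta28 and WT by edgeR or DESeq2. At an unadjusted p below 0.05 in edgeR there were 3 of them, beside 14.1% of all genes. Mean levels in WT and Delta28 were 24.5 and 34.1 CPM for SUC2, 115 and 153 for AHA3, and 9.12 and 14.0 for SWEET11. Only SWEET12 had a lower mean in Delta28 than in WT, at 5.85 against 6.25 CPM. The summed level of the 5 per library lay between 226 and 364 CPM in WT and between 236 and 506 CPM in Delta28. The part of these markers in the FT difference was not tested.

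In mock K>R 1-9 leaves FT had a mean close to that of Delta28, with a wider spread. The K>R 1-9 mock replicates were at 1.81, 5.04 and 4.76 CPM, all above the 3 WT mock replicates. With ABA they were at 0.713, 4.05 and 0.198 CPM, a range that includes all 3 WT ABA replicates. Over both treatments the difference from WT was 2.35 on the log2 scale (SE 0.73, 95% interval 0.85 to 3.86), which missed the threshold in edgeR (adjusted p = 0.0586) and passed it in DESeq2 (adjusted p = 0.0184). It also passed in edgeR without K>R 1-9 ABA replicate 3 (adjusted p = 0.0485). Delta28 and K>R 1-9 were not told apart by the test, with a difference of -0.62 (95% interval -1.85 to 0.61) for K>R 1-9 minus Delta28.

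FT in K>R 3, the line with a single changed lysine, overlapped with WT. Its mock replicates were at 0.737, 0.308 and 2.60 CPM and its ABA replicates at 0.727, 0 and 0.389 CPM. Against WT the difference over both treatments was 0.37 (SE 0.78, 95% interval -1.25 to 2.00), an interval that does not exclude a sizeable change in either direction. Against Delta28, FT was lower in K>R 3 by -2.60 on the log2 scale (SE 0.68, 95% interval -4.01 to -1.20; edgeR adjusted p = 0.0377), and 5 of 6 K>R 3 libraries lay below all 6 Delta28 libraries. FT was the 1 member of 8 called here, beside 3.3% of all genes. This call held in 4 of 12 fits that left out 1 library (edgeR adjusted p from 0.0304 to 0.117). Without K>R 3 mock replicate 2 it was -2.41 (edgeR adjusted p = 0.0908), and without both of the libraries named above it was -2.41 (edgeR adjusted p = 0.1001). The comparisons of Delta28 with WT and with K>R 3 share the Delta28 libraries.

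Markers of phloem and of leaf mesophyll also differed between K>R 3 and Delta28, those of mesophyll without a call. SUC2, the sucrose loader of companion cells, was lower in K>R 3 than in Delta28 by -0.95 (SE 0.26, edgeR adjusted p = 0.0447), and AHA3, a proton pump of the same cells, by -0.63 (SE 0.17, edgeR adjusted p = 0.0394). These calls held in 3 and in 4 of 12 fits that left out 1 library, and neither held without the 2 libraries named above (edgeR adjusted p = 0.128 and 0.121). The other 3 of the 5 phloem markers were not called. The summed level of the 5 was 237 to 370 CPM in K>R 3 and 236 to 506 CPM in Delta28. Of 5 leaf mesophyll markers 4 had an unadjusted edgeR p below 0.05 between K>R 3 and Delta28, beside 19.3% of all genes. Their median log2 fold change was -0.92. Between K>R 3 and WT, where FT was not called, all 5 had such a p (median -1.09), beside 17.4% of all genes. None of the 5 was called in either comparison. Their summed level was 2525 to 15336 CPM in K>R 3, 4113 to 29084 CPM in Delta28 and 6758 to 28294 CPM in WT. The part of either marker list in the FT difference was not tested. K>R 3 and K>R 1-9 differed in FT by -1.98 (95% interval -3.39 to -0.58; edgeR adjusted p = 0.135), which was not called.

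Ordered by group mean, FT was at 4.01 ± 3.25 CPM in Delta28 ABA, 3.88 ± 0.116 in Delta28 mock, 3.87 ± 1.79 in K>R 1-9 mock and 1.66 ± 2.09 in K>R 1-9 ABA leaves (mean ± SD, n = 3 libraries each). Below these came WT ABA at 1.34 ± 0.909, K>R 3 mock at 1.21 ± 1.22, K>R 3 ABA at 0.372 ± 0.364 and WT mock at 0.161 ± 0.145 CPM. Neighbours in this order differed by less than the larger of their SDs, with the exception of K>R 1-9 mock and ABA, whose single libraries overlapped.

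**Figure D1:**
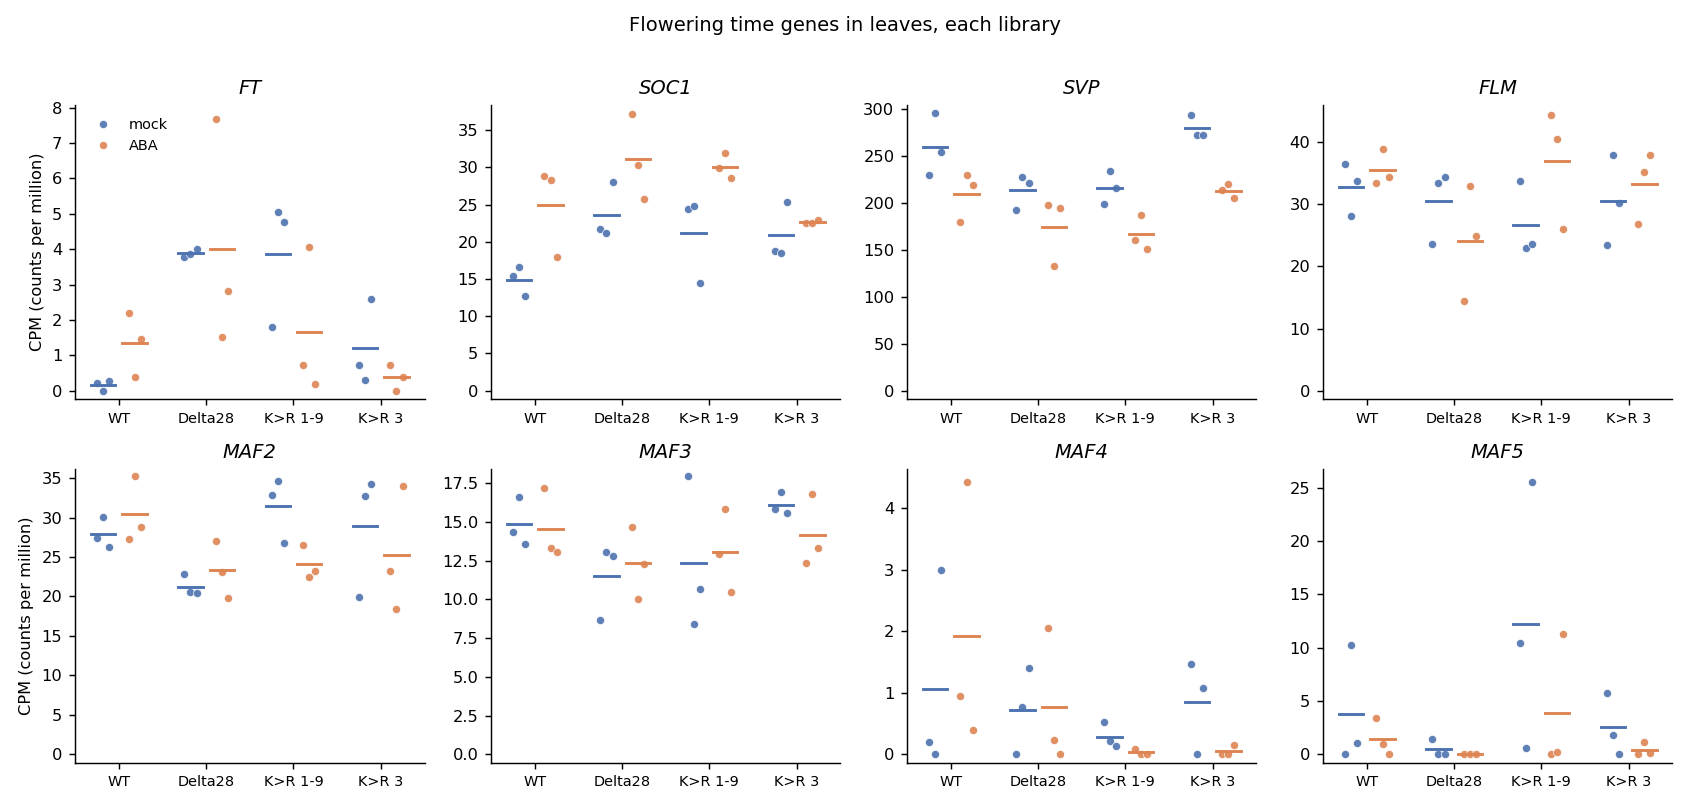
Level of each of the 8 tested members in every library (points, CPM on a linear axis from 0), by genotype and treatment (blue mock, orange ABA), with the mean of 3 libraries as a bar. FT sits between 3.77 and 4.00 CPM in Delta28 mock leaves and at or under 0.281 CPM in WT mock leaves, while SVP, FLM, MAF2 and MAF3 overlap between all genotypes when mock and ABA libraries are pooled.

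SOC1, which FT and the repressors act on, had its lowest group mean in WT mock leaves, as FT did. In mock leaves SOC1 was at 15.4, 16.6 and 12.7 CPM in WT and at 21.8, 21.2 and 28.0 CPM in Delta28. Mock replicates of K>R 1-9 were at 24.4, 24.8 and 14.4 CPM and those of K>R 3 at 18.8, 18.5 and 25.4 CPM. The WT mock libraries were thus below all mock libraries of Delta28 and K>R 3, and 1 K>R 1-9 library fell among them. With ABA the WT replicates were at 28.8, 28.3 and 17.9 CPM, against 37.1, 30.3 and 25.8 CPM in Delta28. The ABA replicates of K>R 1-9 were at 29.9, 31.9 and 28.5 CPM and those of K>R 3 at 22.5, 22.5 and 23.0 CPM. With ABA, WT overlapped Delta28, K>R 1-9 and K>R 3.

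No SOC1 difference between genotypes passed the threshold. Over both treatments it was 0.62 in Delta28 minus WT (SE 0.18, edgeR adjusted p = 0.106), 0.56 in K>R 1-9 minus WT (SE 0.18, edgeR adjusted p = 0.0726) and 0.20 in K>R 3 minus WT (SE 0.18, edgeR adjusted p = 0.622). The K>R 1-9 value passed in DESeq2 (adjusted p = 0.0438) and in edgeR without K>R 1-9 mock replicate 3 (adjusted p = 0.0264). All 3 mutants were compared with the same WT libraries.

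SVP, a repressor that binds FT and SOC1 together with FLC and FLM, was the member with the most counts, 38985 in all. In mock leaves it was at 229, 296 and 254 CPM in WT and 192, 227 and 221 CPM in Delta28. The mock replicates of K>R 1-9 were at 199, 234 and 215 CPM and those of K>R 3 at 293, 272 and 272 CPM. In mock leaves all 3 Delta28 libraries thus lay below the 3 WT libraries, while K>R 1-9 and K>R 3 overlapped with WT. The mock difference of Delta28 from WT was -0.19 (edgeR adjusted p = 0.822) and was not called. With ABA the replicates were at 179.7, 230.1 and 219 CPM in WT and at 197, 133 and 194 CPM in Delta28. Those of K>R 1-9 were at 160.3, 187 and 151 CPM and those of K>R 3 at 213, 219.6 and 205 CPM. With ABA all 3 mutants overlapped with WT. As means of both treatments, the differences from WT were -0.16 in Delta28 (95% interval -0.40 to 0.09), -0.14 in K>R 1-9 (95% interval -0.39 to 0.10) and 0.08 in K>R 3 (95% interval -0.17 to 0.32). These intervals leave room for differences of at most about 0.40 on the log2 scale in either direction, and none was called.

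The FLC relatives FLM, MAF2 and MAF3, which delay flowering and of which FLM and MAF2 act at cool temperatures, were not called in any mutant. FLM ranged from 28.1 to 38.9 CPM in the 6 WT libraries, 14.5 to 34.4 in Delta28, 22.9 to 44.5 in K>R 1-9 and 23.4 to 37.9 in K>R 3. MAF2 ranged from 26.2 to 35.3 CPM in WT, 19.8 to 27.0 in Delta28, 22.5 to 34.7 in K>R 1-9 and 18.4 to 34.2 in K>R 3. MAF3 ranged from 13.1 to 17.2 CPM in WT, 8.66 to 14.7 in Delta28, 8.40 to 18.0 in K>R 1-9 and 12.4 to 16.9 in K>R 3. The ranges of WT and each mutant overlapped for all 3 genes when both treatments were pooled. Of the 6 Delta28 libraries 5 lay below all WT libraries for MAF2, 4 for MAF3 and 3 for FLM. In mock leaves MAF2 did not overlap between Delta28, at 20.4 to 22.8 CPM, and WT, at 26.2 to 30.02 CPM. The fitted mock difference was -0.29 (edgeR adjusted p = 0.805) and was not called. For this and the other gaps between groups of 3 libraries or genotypes of 6, the share of all genes with such a gap was not determined. Log2 differences from WT over both treatments lay between -0.26 and 0.08. The lowest bound of their 95% intervals was -0.65 (FLM in Delta28) and the highest was 0.46 (MAF3 in K>R 3).

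MAF4 and MAF5, 2 neighbouring FLC relatives, were low and uneven between libraries. MAF4 was at 0.203, 0 and 3.00 CPM in WT mock and 0.939, 4.42 and 0.398 CPM in WT ABA leaves. The K>R 1-9 replicates were at 0.517, 0.210 and 0.129 CPM in mock and at 0.0891, 0 and 0 CPM after ABA. Of the 88 WT counts most came from 2 libraries, and the ranges of WT and K>R 1-9 overlapped.

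The fitted MAF4 difference between K>R 1-9 and WT was -3.51 (SE 1.13), which missed the threshold in edgeR (adjusted p = 0.0677) and passed in DESeq2 (adjusted p = 0.0438). Pooled over libraries WT held 12.9 times the level of K>R 1-9 (88 against 7 counts, exact 95% interval 5.98 to 32.9, counting error only). This ratio was 7.94 without WT ABA replicate 2 and 25.0 without K>R 1-9 mock replicate 1. In mock leaves alone the pooled ratio was 6.49, and it was 0.520 without WT mock replicate 3 (1 against 6 counts), so the mock direction rests on that library. In Delta28 MAF4 ranged from 0 to 2.06 CPM and in K>R 3 from 0 to 1.47 CPM. The fitted differences from WT were -0.93 (SE 0.91) and -2.40 (SE 1.05), neither of them called.

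MAF5 was at 10.5, 0.630 and 25.5 CPM in K>R 1-9 mock leaves and at 0, 0.193 and 11.3 CPM in K>R 1-9 ABA leaves. In Delta28 it had counts in 1 library, mock replicate 1 at 1.46 CPM, and 0 in the other 5. WT was at 0, 10.2 and 1.03 CPM in mock and 3.44, 0.96 and 0 CPM in ABA leaves, and the 6 K>R 3 libraries ranged from 0 to 5.71 CPM. Within every genotype other than Delta28 the libraries thus ran from 0 to several CPM. Pooled over both treatments K>R 1-9 held 23.4 times the level of Delta28 (341 against 17 counts, exact 95% interval 14.4 to 40.6, counting error only). This ratio was 11.8 without K>R 1-9 mock replicate 3. Without Delta28 mock replicate 1, which held all 17 counts, it was at least 104.3, taking 3 counts in the whole group as the floor. In ABA leaves 57 of the 59 K>R 1-9 counts came from replicate 3.

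The edgeR fit put the difference between K>R 1-9 and Delta28 in MAF5 at 6.19 (SE 1.85, adjusted p = 0.0601), which was not called. This size depends on how 0 counts are handled and is not a bound. It passed with no filter on low counts (edgeR adjusted p = 0.0481) and in DESeq2 (adjusted p = 0.0376).

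Counted over the 8 tested members, edgeR called 1 in Delta28 against WT and 1 in K>R 3 against Delta28, both FT, and 0 in the other 4 genotype comparisons over both treatments. In K>R 1-9 against WT, where 5.31% of all genes were called and 21.4% had an unadjusted p below 0.05, 3 members had such a p and DESeq2 called 3, namely FT, SOC1 and MAF4. In K>R 3 against WT, with 1.02% of all genes called and 17.4% at an unadjusted p below 0.05, 1 member (MAF4) had such a p and DESeq2 called 0 of the 5 to which it gave an adjusted p. In K>R 1-9 against Delta28, with 4.43% called and 21.3% at such a p, 2 members (MAF4 and MAF5) did so and DESeq2 called 1, MAF5. In K>R 3 against K>R 1-9, with 0.793% called and 17.6% at such a p, 2 members (FT and MAF5) did so and DESeq2 called 0 of 7. The median log2 fold change of the 8 members was -0.21 in Delta28, 0.05 in K>R 1-9 and -0.01 in K>R 3 against WT, beside 0.01, -0.02 and 0.01 over all genes. The Delta28 median was also -0.21 with MAF5 set at its bound.

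**Figure D2:**
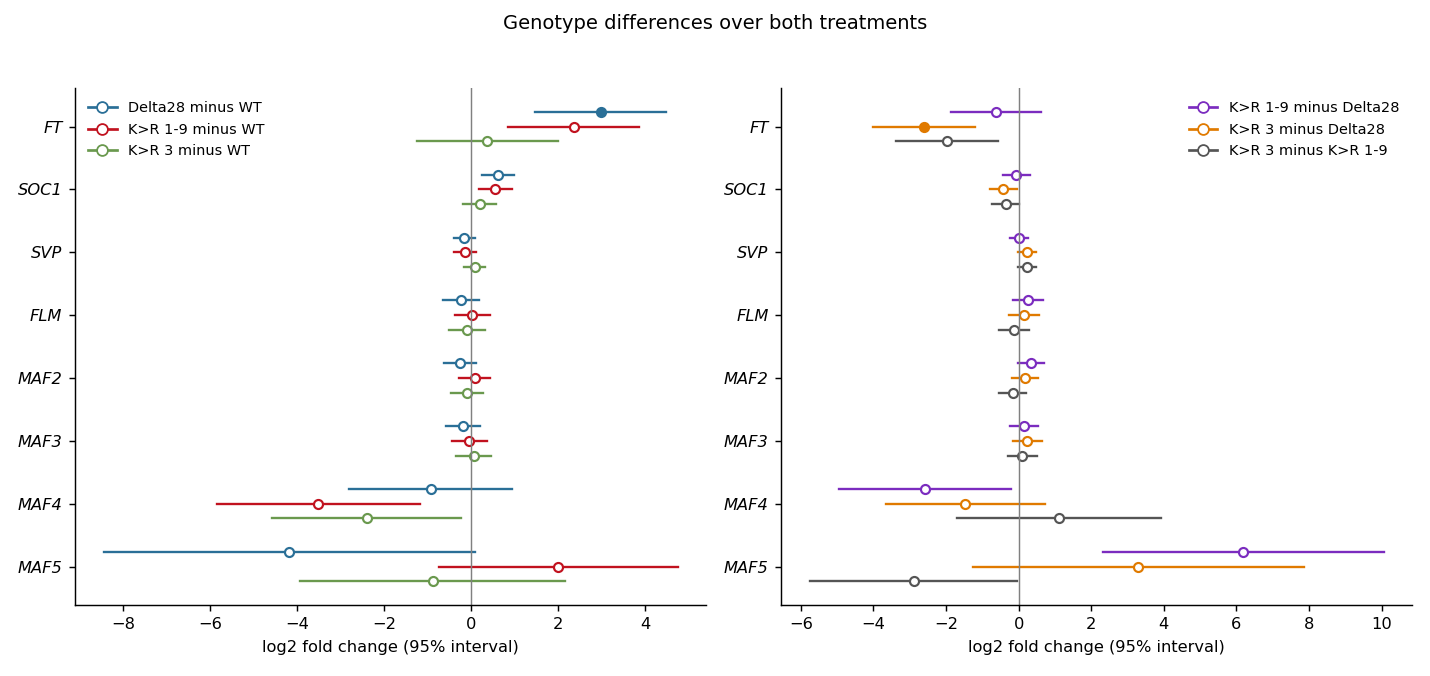
Log2 fold changes of the 8 tested members between genotypes over both treatments from the edgeR fit (points, with 95% intervals as lines), mutants against WT on the left and mutants against each other on the right. Filled points mark the 2 calls, FT at 2.98 in Delta28 minus WT and at -2.60 in K>R 3 minus Delta28, and the widest intervals are those of MAF4 and MAF5.

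In mock leaves alone, with 3 libraries a group, no member was called. FT differed from WT by 4.12 in Delta28 (SE 1.13, edgeR adjusted p = 0.213), 4.14 in K>R 1-9 (SE 1.13, edgeR adjusted p = 0.114) and 2.45 in K>R 3 (SE 1.17, edgeR adjusted p = 0.384). These comparisons called 0.159%, 0.245% and 0.00721% of all genes. At an unadjusted p below 0.05 they held 2 members (FT and SOC1), 2 members (FT and SOC1) and 1 member (FT), beside 8.88%, 14.4% and 12.9% of all genes. DESeq2 called FT in Delta28 (adjusted p = 0.0407) and in K>R 1-9 (adjusted p = 0.0176) and no member in K>R 3. The fold changes rest on the 4 counts of FT in WT mock leaves.

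ABA closes stomata and also touches flowering, and the question for these genes is whether 4 h of the hormone changed them and whether the change depended on the H2A.Z tail. FT in WT leaves was higher with ABA by 2.45 on the log2 scale (SE 1.17, edgeR adjusted p = 0.230), which was not called. All 3 ABA replicates exceeded the mock replicates in CPM, but depth does not resolve this order. ABA replicate 2 held 4 counts and mock replicate 3 held 3. In mock replicate 2, with 0 counts, 3 counts correspond to 1.92 CPM. In Delta28 the change was 0.17 (SE 0.83), in K>R 1-9 it was -1.12 (SE 0.86) and in K>R 3 it was -1.70 (SE 1.05), and none of these was called either. Mock and ABA libraries of each mutant overlapped.

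The difference of the FT response from that of WT was -2.29 in Delta28 (SE 1.43), -3.58 in K>R 1-9 (SE 1.45) and -4.15 in K>R 3 (SE 1.57). The unadjusted p of these interaction terms in edgeR was 0.123, 0.0219 and 0.0148, and no value passed after adjustment over all genes. All 3 share the WT libraries, and FT in WT mock leaves had 4 counts.

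SOC1 was higher with ABA in WT by 0.78 (SE 0.26, edgeR adjusted p = 0.0809), which passed without WT ABA replicate 3 (edgeR adjusted p = 0.0385). The WT ABA libraries, at 17.9 to 28.8 CPM, did not overlap the mock libraries, at 12.7 to 16.6 CPM. The SOC1 values in Delta28, K>R 1-9 and K>R 3 were 0.49 (SE 0.25), 0.56 (SE 0.25) and 0.20 (SE 0.25), none of them called. SVP values were negative in all 4 genotypes, at -0.27, -0.21, -0.32 and -0.31 in WT, Delta28, K>R 1-9 and K>R 3, with edgeR adjusted p from 0.242 to 0.418. Its mock and ABA libraries did not overlap in K>R 1-9 (199 to 234 against 151 to 187 CPM) or K>R 3 (272 to 293 against 205 to 220 CPM), and overlapped in WT and Delta28. FLM, MAF2 and MAF3 had values of both signs, from -0.32 to 0.53.

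No member was called by edgeR or DESeq2 for the ABA response in any genotype. The shares of all genes called were 5.77% in WT, 14.2% in Delta28, 9.31% in K>R 1-9 and 10.8% in K>R 3. At an unadjusted p below 0.05 there were 2 members in WT (FT and SOC1), 0 in Delta28, 1 in K>R 1-9 (SOC1) and 0 in K>R 3, beside 21.2%, 29.5%, 25.6% and 26.2% of all genes. For the 3 differences of response from WT edgeR and DESeq2 each called 0 of all genes (0%), with 445, 456 and 512 genes at an unadjusted p below 0.05 in edgeR for Delta28, K>R 1-9 and K>R 3. Of the members 0, 1 and 1 were among those, in each case FT.

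**Figure D3:**
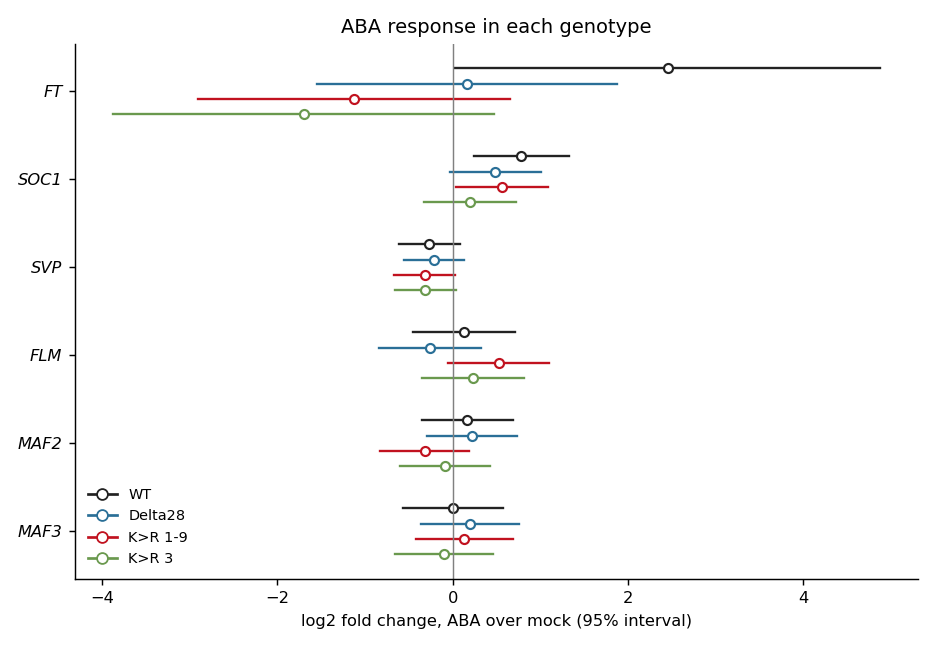
Log2 fold change of ABA over mock for 6 members in each genotype from the edgeR fit (open points, 95% intervals as lines; no value was called). FT goes from 2.45 in WT to -1.70 in K>R 3 with wide intervals, and SVP lies between -0.32 and -0.21 in the 4 genotypes.

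Other genes of the flowering pathways were read from 5 lists: light and day length, the autonomous pathway, FLC activators, vernalization and Polycomb genes, and the partners and targets of FT and SOC1. Of 69 genes 67 had an entry and 52 were tested. Against WT over both treatments 1 was higher in Delta28, 4 were higher in K>R 1-9 and 0 were called in K>R 3 (7 at an unadjusted p below 0.05, and 2 by DESeq2), and all 5 calls were in the list of partners and targets, of which 15 genes were tested. Over all genes 1.36%, 5.31% and 1.02% were called in these 3 comparisons, and 17.4% had an unadjusted p below 0.05 in K>R 3 against WT. The median log2 fold change of the 52 was -0.02, -0.10 and 0.00 in Delta28, K>R 1-9 and K>R 3.

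FUL, a MADS-box gene switched on after FT at the start of flowering, was at 1.42, 4.47 and 0.562 CPM in WT mock and 0.313, 0.672 and 0.133 CPM in WT ABA leaves. The Delta28 replicates were at 3.17, 7.91 and 4.00 CPM (mock) and 2.21, 2.22 and 1.57 CPM (ABA). The K>R 1-9 replicates were at 2.71, 2.52 and 2.32 CPM (mock) and 5.53, 3.57 and 1.39 CPM (ABA). WT mock replicate 2, at 4.47 CPM from 7 counts, overlapped both mutants, and the other WT libraries were at or below 1.42 CPM. FUL was higher than in WT by 2.08 in Delta28 (SE 0.52, edgeR adjusted p = 0.0438) and by 2.03 in K>R 1-9 (SE 0.51, edgeR adjusted p = 0.0252). These calls held in 3 and in 6 of 12 fits that left out 1 library. Both held without K>R 3 mock replicate 2 and WT mock replicate 2 (2.50 and 2.44, edgeR adjusted p = 0.0233 and 0.0182). The first missed the threshold with scaling by the library total (adjusted p = 0.0590) and with no filter (adjusted p = 0.0539) in edgeR.

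SPL4, a promoter of flowering that the age pathway controls, was higher in K>R 1-9 than in WT by 1.11 (SE 0.23, edgeR adjusted p = 0.00855) and lower in K>R 3 than in K>R 1-9 by -1.12 (SE 0.23, edgeR adjusted p = 0.0223). It was at 15.4 to 21.4 CPM in the 6 WT libraries and 22.9 to 60.1 CPM in the 6 K>R 1-9 libraries, without overlap. How many of all genes show such a gap was not determined. The first call held in all 12 fits that left out 1 library and the second in 7 of 12, and both held without these 2 libraries (edgeR adjusted p = 0.0296 and 0.0457). Its relative SPL3 was higher in K>R 1-9 than in WT (0.86, SE 0.24, edgeR adjusted p = 0.0422) and than in Delta28 (1.10, SE 0.24, edgeR adjusted p = 0.0188). These calls held in 2 and in 9 of 12 such fits, and without the 2 libraries the first was lost (edgeR adjusted p = 0.108) and the second held (edgeR adjusted p = 0.0247). BFT, a member of the FT family that represses flowering, was higher in K>R 1-9 than in WT by 2.95 (SE 0.86, edgeR adjusted p = 0.0484), a call that held in 1 of 12 such fits and was lost without the 2 libraries (edgeR adjusted p = 0.0648). FPA, an RNA-binding protein of the autonomous pathway that lowers FLC, was higher in K>R 3 than in Delta28 by 0.72 (SE 0.18, edgeR adjusted p = 0.0321), which held in 7 of 12 such fits and was lost without the 2 libraries (edgeR adjusted p = 0.0914).

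With ABA, PHYB, a red light receptor that delays flowering, fell in WT (-1.001, SE 0.23, edgeR adjusted p = 0.0134), Delta28 (-0.73, SE 0.23, edgeR adjusted p = 0.0377) and K>R 3 (-1.32, SE 0.24, edgeR adjusted p = 0.00180). SPL3 rose in WT (1.23, SE 0.36, edgeR adjusted p = 0.0449) and K>R 3 (1.14, SE 0.35, edgeR adjusted p = 0.0410), BFT rose in K>R 3 (3.91, SE 1.19, edgeR adjusted p = 0.0376) and FVE, an autonomous pathway repressor of FLC, fell in Delta28 (-0.74, SE 0.23, edgeR adjusted p = 0.0390). PHYB held in 4, 1 and 6 of 6 fits that left out 1 library in WT, Delta28 and K>R 3. SPL3 held in 1 of 6 in WT and in K>R 3, BFT in 1 of 6 and FVE in 2 of 6. Without K>R 3 mock replicate 2 and WT mock replicate 2 the calls of PHYB and SPL3 in WT (edgeR adjusted p = 0.0843 and 0.183) and of SPL3 and BFT in K>R 3 (edgeR adjusted p = 0.0960 and 0.0977) were lost. Of the 52 genes 2 were called in WT, 2 in Delta28, 0 in K>R 1-9 (5 at an unadjusted p below 0.05, and 2 by DESeq2) and 3 in K>R 3, beside 5.77%, 14.2%, 9.31% and 10.8% of all genes. Some cell type markers moved with ABA too. AHA3 was higher in all 4 genotypes, by 1.03 to 1.69 (edgeR adjusted p from 0.000454 to 0.0129), and SWEET12, a sugar exporter of the phloem, in K>R 1-9 and K>R 3. The SWEET12 call in K>R 3 was lost without these 2 libraries (edgeR adjusted p = 0.113). The other phloem markers, SUC2, SULTR2;1 and SWEET11, were not called by edgeR with ABA in any genotype. From mock to ABA the SUC2 mean fell in WT (26.6 to 22.3 CPM), K>R 1-9 (24.3 to 20.9) and K>R 3 (21.0 to 16.7). It rose in Delta28 (31.8 to 36.5). The SULTR2;1 mean was lower with ABA in WT, Delta28 and K>R 3 and higher in K>R 1-9. That of SWEET11 was higher in WT and K>R 3 and lower in Delta28 and K>R 1-9. Of 5 leaf mesophyll markers 2 were called lower in WT and 3 in each mutant, with median log2 fold changes from -1.91 to -1.32. Their part in the ABA values was not tested. None of the 52 differed between a mutant and WT in its ABA response, with 0, 3 and 3 at an unadjusted p below 0.05 in edgeR and 0 called by DESeq2.

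Floral organ markers were read because FT and FUL are high in shoots that have begun to flower. SEP3, a MADS-box gene of floral organs, had 0 counts in WT mock leaves and 0, 0.576 and 0 CPM in WT ABA leaves. In Delta28 it was at 1.63, 5.55 and 0.801 CPM in mock and 1.52, 1.52 and 2.201 CPM after ABA, and in K>R 1-9 all 6 libraries had counts, from 0.198 to 3.36 CPM. All 6 K>R 3 libraries had 0 counts. By CPM, Delta28 libraries thus lay above all WT and K>R 3 libraries, and K>R 1-9 libraries above all K>R 3 libraries. Depth limits this order. K>R 1-9 mock replicate 3 and ABA replicate 3 held 2 and 1 counts, while 3 counts correspond to 0.233 to 0.925 CPM in K>R 3 libraries. In WT mock replicate 2 they correspond to 1.92 CPM, above several of the Delta28 values.

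Pooled over libraries SEP3 was 19.0 times as high in Delta28 as in WT (136 against 6 counts, exact 95% interval 8.51 to 52.7) and 12.9 times as high in K>R 1-9 as in WT (79 against 6 counts, exact 95% interval 5.66 to 36.1). Against K>R 3 it was at least 30.9-fold higher in Delta28 and at least 20.9-fold higher in K>R 1-9, again taking 3 counts in the whole group as the floor. All 6 WT counts came from ABA replicate 2, without which the ratios to WT were at least 29.4 in Delta28 and at least 19.9 in K>R 1-9. Without Delta28 mock replicate 2, which held 73 of the 136 counts, Delta28 was 11.6 times as high as WT and at least 18.9-fold higher than K>R 3. Without K>R 3 ABA replicate 3, the deepest library of K>R 3, the bounds against that line were 20.3 and 13.7. These 4 differences were called by edgeR (adjusted p = 0.0415, 0.0293, 0.0126 and 0.0392), in the order given. They held in 1, 4, 12 and 3 of 12 fits that left out 1 library. Without K>R 3 mock replicate 2 and WT mock replicate 2, K>R 3 against Delta28 was still called (edgeR adjusted p = 0.0320) and the other 3 were not (edgeR adjusted p from 0.0527 to 0.0746). SEP1, a close relative, was higher in K>R 1-9 than in WT by 3.56 (SE 0.98, edgeR adjusted p = 0.0380), a call that held in 5 of 12 such fits and not without these 2 libraries (edgeR adjusted p = 0.0544). AG, which marks stamens and carpels, was lower in Delta28 than in WT, opposite to SEP3. It lay between 1.28 and 4.32 CPM in WT (152 counts) and between 0 and 1.52 CPM in Delta28 (37 counts). The fitted AG difference was -2.12 for Delta28 minus WT, with an unadjusted edgeR p below 0.05, and 2.21 for K>R 3 minus Delta28. Neither AG difference was called by edgeR, and both were called by DESeq2. PI, a petal and stamen gene, had at most 0.4003 CPM in any library. AP3 and SEP2 had 0 counts, but they lie on the minus strand, where a 0 is not informative. FUL, SEP1, SEP3, FPA, SUC2, AHA3, SWEET11 and SWEET12 are minus-strand genes too, so by the same rule their counts leave out the 3′ exon. Summed over the 6 markers the level was 1.62 to 4.99 CPM in WT, 2.34 to 9.05 CPM in Delta28, 3.22 to 6.97 CPM in K>R 1-9 and 3.03 to 7.18 CPM in K>R 3, and the part of these markers in the FT and FUL differences was not tested.

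**Figure D4:**
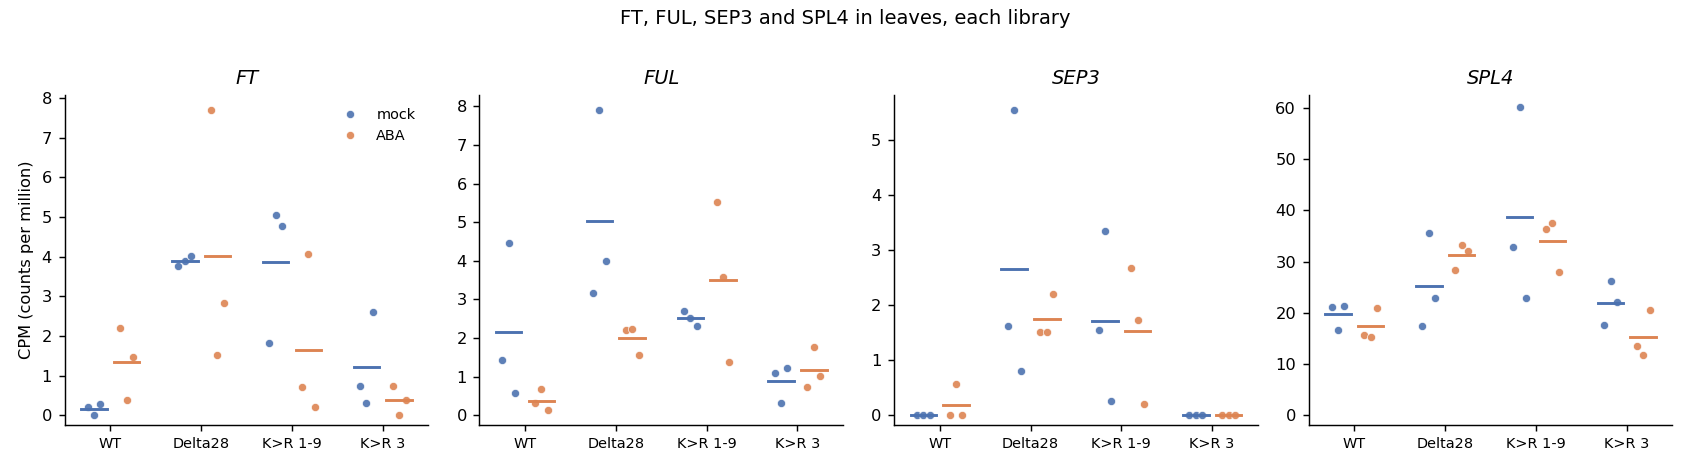
FT, FUL, SEP3 and SPL4 in every library (points, CPM on a linear axis from 0) by genotype and treatment, with the mean of 3 libraries as a bar. SEP3 is at 0 in all K>R 3 libraries and at 0.801 to 5.55 CPM in Delta28, and SPL4 in K>R 1-9, at 22.9 to 60.1 CPM, lies above all WT libraries.

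For the 3 members with the most counts, the genes whose log2 CPM followed them most closely over the 24 libraries were found by Pearson correlation, as a description. SVP was closest to AT5G42770 (r = 0.885), AT4G16490 (r = 0.853) and SOS4 (r = 0.845). MAF2 was closest to RTL1 (r = 0.736), AT3G09690 (r = 0.733) and RCAR3 (r = 0.727). For FLM the highest values were lower, with LCB1 at 0.624, SSN2 at 0.615 and AT1G32810 at 0.609. All values share the same libraries, depth and treatments.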

How the data were processed

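RNA of 24 leaf samples was profiled with QuantSeq FWD, which reads 3′ ends, per the labels' protocols. Settings, genome build and annotation are not stated in the labels, and the submitters' processing notes name STAR, RSEM and Trim Galore. Per the file headers, the authors deposited for each gene an expected count, which was used here, and a transcript length, 1 of the other deposited columns, which was used to compare gene models. TPM and FPKM assume reads along the transcript and were not used.

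Expected counts were rounded and fitted in R 4.3.3 with edgeR 4.0.16 (filterByExpr on 8 groups, TMM factors 0.886 to 1.14, quasi-likelihood test, 1 mean per group over 24 libraries). Genes were called at an adjusted p below 0.05. Alternatives were RLE scaling, scaling by the library total, no filter, DESeq2 1.42.0, a replicate block, each library left out, and, added after the data were seen, the shallowest library (WT mock replicate 2) left out with K>R 3 mock replicate 2, and pooled ratios with each library left out. The edgeR procedure was also run on simulated data, but the outcome is not given here and no result rests on it. The 46 rows with the prefix PEK held at most 0.0346% of a library's counts. Intervals and floors cover counting error only where they come from pooled counts. Replicates are biological, per the series design.

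The 10 members and all lists were chosen with earlier results of these data known. All members are named. Of the other flowering lists, called genes are named by size of change, at most 4 for each list and comparison, and for likeness the 3 genes with the highest r for each of the 3 members with the most counts.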

Additional observations from a re-analysis of the deposited data

How the results depend on the processing

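The counts of members called moved as follows. In Delta28 against WT, and in K>R 3 against Delta28, the 1 call became 0 with a replicate block and 0 without the pair of libraries that stood apart (K>R 3 mock replicate 2 and WT mock replicate 2), and ranged from 0 to 1 when 1 library was left out. With DESeq2 the count rose from 0 to 3 in K>R 1-9 against WT and to 1 in K>R 1-9 against Delta28, and, in mock leaves, to 1 in both Delta28 and K>R 1-9 against WT. With no filter it rose to 1 in K>R 1-9 against Delta28. Leaving out 1 library gave 0 to 1 in K>R 1-9 against WT and in the ABA response of WT. The FT value under the block was 3.01 in Delta28 against WT (edgeR adjusted p = 0.0591) and -2.62 in K>R 3 against Delta28 (edgeR adjusted p = 0.0513). Same-numbered mock and ABA libraries of a genotype did not pair: their deviations correlated at -0.165 to 0.274 over 12 pairs, 2 of them over 0.1, and 7 of 24 libraries correlated best with their own number.

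Over all genes DESeq2 called 402 in place of 188 in Delta28 against WT, 1320 for 737 in K>R 1-9 against WT, 608 for 141 in K>R 3 against WT, 1196 for 615 in K>R 1-9 against Delta28, 1018 for 458 in K>R 3 against Delta28 and 647 for 110 in K>R 3 against K>R 1-9. In mock leaves it called 88 for 22, 355 for 34 and 79 for 1 in Delta28, K>R 1-9 and K>R 3, and 1291 for 801 in the ABA response of WT. Scaling by the library total gave 689 for 458 in K>R 3 against Delta28 and 365 for 110 in K>R 3 against K>R 1-9, and the block 391 for 615 in K>R 1-9 against Delta28. Without that pair of libraries the counts over both treatments were 97, 393 and 1 in Delta28, K>R 1-9 and K>R 3 against WT, 146 in K>R 3 against Delta28 and 38 in K>R 3 against K>R 1-9, in mock 9 and 7 in Delta28 and K>R 1-9, and 255 in the ABA response of WT. Leaving out 1 library gave 94 to 218 and 254 to 822 in Delta28 and K>R 1-9 against WT, 1 to 884 in K>R 3 against WT, 169 to 842 in K>R 1-9 against Delta28, 160 to 1008 in K>R 3 against Delta28 and 32 to 1040 in K>R 3 against K>R 1-9. It gave 4 to 29, 1 to 42 and 1 to 13 in mock, and 240 to 892, 889 to 2157, 532 to 1472 and 529 to 1639 for the ABA response in WT, Delta28, K>R 1-9 and K>R 3. The cause was not tested.

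Scaling by the library total moved the median of all genes by more than 0.1 in some comparisons, to -0.10 in Delta28 against WT, -0.17 in K>R 1-9 against WT and 0.15 in K>R 3 against K>R 1-9, and changed the sign of 5 of 128 member values, none of them called. FT rests on 431 counts in all 24 libraries, so depth limits each of its values. None of the alternatives run turned the direction of a called value of a named gene.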
